A study of Mus musculus with 12 samples.

Results

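The data described here are m1A peak regions in mouse genes that held many of them. Such a region is a called stretch and not a proven m1A site, and close neighbours count separately. Peaks of 6 deposited m1A lists were merged where they shared at least 1 bp, which gave 13572 regions. A region was assigned to each protein-coding gene whose RefSeq span, if under 500 kb, held a summit of the region, the summit being the position of highest signal in a peak. The 196 genes with 6 or more regions held 1561 of the 13572 regions, and these regions are the members. They were chosen on the calls themselves, over all lists jointly and without regard to genotype, so the number of regions in a gene is a description and not a finding. Another 8877 regions lay in the genes with 1 to 5 regions.

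The lists came from the caudate putamen (CPu), the dorsal striatum, whose main neuron is the GABAergic medium spiny neuron. All animals were adult male Tet1 fl/fl mice injected stereotaxically in the CPu. Control mice received AAV-EGFP, a virus that carries a green reporter alone. Knockout (KO) mice, genotype label Tet1 delta/delta, received AAV-Cre-EGFP, so that recombination could occur only in infected cells of the injected area, and tissue was taken 2 weeks after injection in both groups. Each group had 3 m1A pull-down libraries and 3 inputs. Each pull-down has a list called against the matching input, and inputs enter the values only through that calling. The labels do not say that the numbered libraries came from separate animals, and a p-value over libraries reflects only how these libraries vary, which may be technical. In bulk tissue, fewer cells of a type and less RNA per cell cannot be told apart.

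N1-methyladenosine (m1A) is a methyl group on the base-pairing face of adenosine that adds a positive charge. It is abundant in tRNA, where the TRMT6/TRMT61A enzyme writes it in the T loop, and in ribosomal RNA, and it is rarer in messenger RNA, where sites near the start of the transcript have been described. TET1 is an enzyme that oxidises methylated cytosines of DNA, and the study asked where in the transcriptome its loss goes with a change in m1A. In a pull-down, fragmented RNA bound by an m1A antibody is sequenced, and a peak marks a stretch with more tags than the local background.

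The sequence at the start of a gene is shown for 5 genes because few members were found there. These are the reproducible cases among member genes whose strand was given with a RefSeq start. Member genes without a given strand could not enter, so further such starts may be missing. The starts were selected after their values were seen: the window around the gene's own RefSeq start shared at least 40 bases with a member called in at least 4 libraries, and Ccl21b, whose family has near-identical copies that share reads, was left out. Each line gives 250 bases before and 30 bases after the start in GRCm38.p6 from RefSeq, 5′ to 3′ on the gene's strand, and capitals mark the bases that lie inside the m1A region.
Ppp1r9b: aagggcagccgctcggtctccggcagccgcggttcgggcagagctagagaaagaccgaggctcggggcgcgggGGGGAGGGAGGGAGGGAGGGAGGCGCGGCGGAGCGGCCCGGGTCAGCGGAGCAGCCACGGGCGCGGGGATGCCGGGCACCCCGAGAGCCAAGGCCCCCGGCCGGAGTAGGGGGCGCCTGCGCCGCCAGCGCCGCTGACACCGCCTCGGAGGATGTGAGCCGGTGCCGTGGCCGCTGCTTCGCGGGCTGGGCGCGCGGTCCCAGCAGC
Adam22: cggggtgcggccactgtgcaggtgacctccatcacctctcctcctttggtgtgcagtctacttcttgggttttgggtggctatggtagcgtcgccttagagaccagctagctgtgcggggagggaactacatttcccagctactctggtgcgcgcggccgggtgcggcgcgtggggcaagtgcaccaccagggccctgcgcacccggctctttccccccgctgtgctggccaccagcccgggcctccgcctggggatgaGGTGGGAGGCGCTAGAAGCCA
Gnao1: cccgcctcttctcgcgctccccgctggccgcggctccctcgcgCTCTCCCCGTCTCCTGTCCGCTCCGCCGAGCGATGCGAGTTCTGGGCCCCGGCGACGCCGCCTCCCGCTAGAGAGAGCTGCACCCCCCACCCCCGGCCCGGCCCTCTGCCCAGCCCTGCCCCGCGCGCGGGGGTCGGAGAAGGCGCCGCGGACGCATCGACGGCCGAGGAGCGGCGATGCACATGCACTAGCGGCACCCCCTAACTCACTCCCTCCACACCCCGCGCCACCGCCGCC
Slc35f3: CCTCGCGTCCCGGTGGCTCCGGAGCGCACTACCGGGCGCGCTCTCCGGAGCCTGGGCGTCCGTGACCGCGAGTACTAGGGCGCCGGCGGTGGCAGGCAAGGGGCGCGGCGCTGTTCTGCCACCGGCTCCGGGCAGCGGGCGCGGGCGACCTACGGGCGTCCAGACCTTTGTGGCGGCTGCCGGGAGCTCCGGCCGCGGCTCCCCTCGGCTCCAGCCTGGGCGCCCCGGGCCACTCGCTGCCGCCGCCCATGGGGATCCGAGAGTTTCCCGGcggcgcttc
Cnst: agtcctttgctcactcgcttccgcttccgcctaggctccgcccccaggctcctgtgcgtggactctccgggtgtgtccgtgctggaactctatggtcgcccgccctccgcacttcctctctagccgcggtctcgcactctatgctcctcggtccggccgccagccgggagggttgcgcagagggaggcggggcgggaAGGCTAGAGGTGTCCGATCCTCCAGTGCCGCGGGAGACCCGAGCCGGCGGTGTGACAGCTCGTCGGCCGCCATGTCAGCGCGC
Ppp1r9b encodes spinophilin, a scaffold of dendritic spines that holds protein phosphatase 1, and its window was chr11:94990962-94991241 on the plus strand. The region there was called in all 6 libraries and covered 207 of the printed bases. Adam22 encodes a synaptic receptor for LGI1, its window was chr5:8368131-8368410 on the minus strand, and the region, also called in all 6 libraries, reached 21 of the printed bases. Gnao1 encodes the alpha subunit of the G protein Go, and its window was chr8:93810588-93810867 on the plus strand. Slc35f3 encodes a member of a solute carrier family, with its window at chr8:126138875-126139154 on the plus strand. Cnst encodes consortin, a trafficking receptor for connexins, with its window at chr1:179546279-179546558 on the plus strand. The regions at these last 3 starts were called in 4 libraries each and covered 237, 271 and 83 of the printed bases.

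All 5 windows were rich in G and C, from 66.3% in Adam22 to 77.3% in Ppp1r9b. The median was 52.7% over all 32851 RefSeq windows from 250 bases before to 50 after a start. Over the 956 windows that any region touched it was 68.0%, so this richness was not particular to these 5 starts or to members. The letters GTTCAA and GTTCGA, which resemble the tRNA T loop in which m1A is written, were looked for on both strands, and these motifs do not overlap one another. Neither stood in the 30 windows of member genes that shared a base with one of the gene's own member regions. They stood in 11.7% of all windows and in 7.74% of the 956 windows that any region touched. No match says only that these letters were not in those windows. Of the members, 40 of 1561 (2.56%) touched any start window, against 720 of the 8877 regions in genes with 1 to 5 regions (8.11%). A gene has few starts, so the rule of 6 or more regions itself lowers this share. The 2 shares are thus not on an equal footing. By gene, 26 of the 196 member genes had an own start window that one of their members touched. All 26 were among the 142 genes whose strand the windows gave. The other genes did not enter, so this count and the shares of members that touched a start may be too low. Among members called in at least 3 libraries the share was 5.81% (18 of 310), and among those called in 1 library it was 1.55% (16 of 1030).

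The lists that supplied the members were unequal. Calling rested on 459332, 1097292 and 864206 pull-down tags in controls 1, 2 and 3, against 1235247, 2508102 and 1336328 in KO 1, 2 and 3, which put each KO above each control in depth. The lists held 3179, 3444 and 3004 peaks in the controls and 3782, 6947 and 3057 in the KOs. Duplicate tags were all retained in control 1, whereas the other lists allowed at most 1 tag per position, and 72.4% of its peaks were exactly 1 fragment long, against 11.8% to 16.0% in the other 5 lists. Control 1 and KO 2 thus stood apart from the rest. The number of members, their comparison between genotypes and the counts of regions or genes separated by genotype are also given without them, and the other counts below hold all 6 libraries. Of the 24 fixed marker genes of medium spiny neurons, 6, 15 and 14 had a peak in controls 1, 2 and 3, and 8, 16 and 11 in KO 1, 2 and 3. Ppp1r1b, which encodes the striatal phosphoprotein DARPP-32, had a peak in every library. A peak does not measure expression, and the absence of a region from a list is no sign that m1A was missing there.

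KO 2 supplied most of the members. Of the 1561 members, 279, 419 and 380 were called in controls 1, 2 and 3, and 406, 966 and 313 in KO 1, 2 and 3. The KO 2 list alone thus held 61.9% of them, while each other list held 17.9% to 26.8%. In KO 2, 620 of its 966 members (64.2%) were called in no other list, and in control 1 this held for 160 of 279 (57.3%). In the other 4 lists 14.5% to 19.0% of the members were theirs alone. Over all regions the shares were 64.8% in KO 2, 67.4% in control 1 and 17.1% to 28.0% in the others, so the KO 2 share was that of its whole list. Within a single list, 74 genes reached 6 regions in KO 2, against 0, 8 and 9 in the controls and 9 and 2 in KO 1 and KO 3. With the KO 2 peaks removed before merging, the rule found 470 regions in 65 genes, and without both control 1 and KO 2 it found 305 regions in 41 genes.

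**Figure D1:**
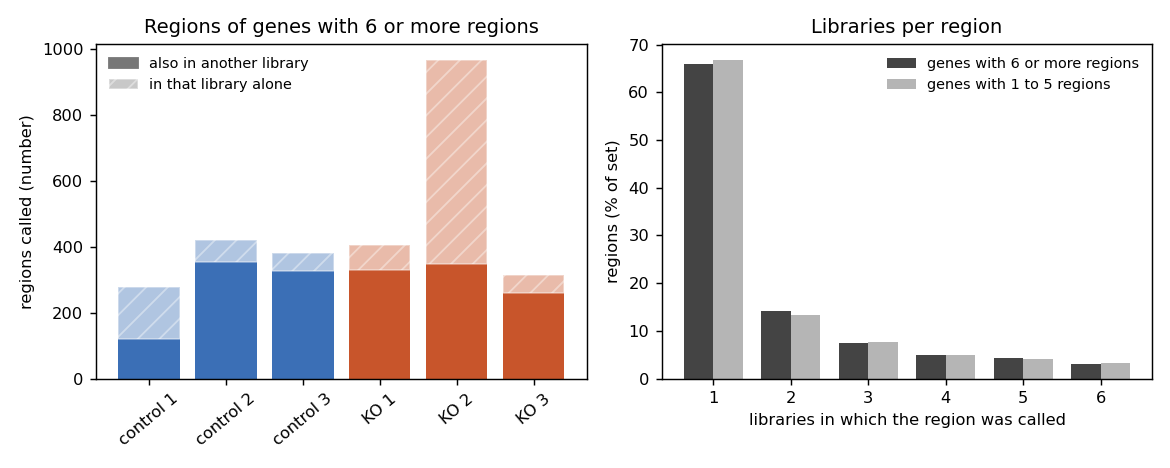
Left, number of member regions called in each library (blue, control; orange, KO), with the hatched part called in that library alone; KO 2 reaches 966, of which 620 are its own. Right, percent of regions against the number of libraries in which they were called, for members (dark) and for regions of genes with 1 to 5 regions (light); the 2 sets have nearly the same distribution.

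Although genes were selected for many regions, a single region of such a gene was found again as often as elsewhere. A total of 1030 members (66.0%) were called in 1 library, against 66.8% of regions in genes with 1 to 5 regions and 69.0% of all regions. In 2, 3, 4 and 5 libraries there were 221, 116, 76 and 69 members. All 6 libraries shared 49 members, 3.14%, against 2.96% of all regions. With control 1 left out, 101 members were called in each of the other 5 libraries. Of the members called in either list, controls 2 and 3 shared 0.502 and KO 1 and KO 3 shared 0.407, while control 1 shared 0.065 to 0.175 with any other list.

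Measured per library, the calls of members overlapped between the genotypes. The same calls had chosen the members, and 620 of the 1561 came from KO 2 alone. The comparisons below thus describe the supply and cannot show a genotype difference or its absence. The mean was 359 ± 72.3 regions in the controls and 562 ± 353 in the KOs (SD, n = 3 each), a difference of 202 with an exact permutation p of 0.5 (two-sided). The share of a library's peaks that lay in members was 9.03%, 12.5% and 12.8% in controls 1, 2 and 3, and 11.0%, 14.1% and 10.8% in KO 1, 2 and 3. The groups overlapped, with means of 11.5% ± 2.12 and 11.9% ± 1.84 (SD, n = 3 each, exact permutation p = 0.9). Member genes with a call numbered 146, 160 and 159 in the controls and 158, 195 and 146 in the KOs (means 155 ± 7.81 and 166 ± 25.5, SD, exact permutation p = 0.9). Regions per called gene were 1.91, 2.62 and 2.4 in the controls and 2.59, 5.01 and 2.14 in the KOs (means 2.31 ± 0.362 and 3.25 ± 1.54, SD, exact permutation p = 0.5). With 3 libraries against 3 no p under 0.1 can be reached, and after Benjamini-Hochberg adjustment over 5 such comparisons every p was 0.9. Per 1000000 pull-down tags used, the direction turned: controls 1, 2 and 3 had 607, 382 and 440 members, and KO 1, 2 and 3 had 329, 385 and 234. Without control 1 and KO 2, with members chosen again, the KO mean was lower by a KO minus control difference of -38.0 regions.

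Genes with more regions were longer. The median span was 29.3 kb for the 3127 genes with 1 region, 118 kb for the 135 genes with 5, just outside the threshold, and 122 kb for the 69 genes with 6, just inside it. It reached 228 kb for the 40 genes with 10 or more. KO 2 alone supplied 23.5% of the regions in genes with 1 region, 33.8%, 35.7% and 34.9% in genes with 5, 6 and 7, and 44.4% in genes with 10 or more, and its own regions count toward the number that orders the genes. The part called in at least 3 libraries was 18.2%, 20.1%, 22.0%, 21.4% and 18.7% in the same order. Across the 5568 protein-coding genes with a region, the number of regions and the span had a Spearman correlation of 0.279, and across the 196 member genes it was 0.219. Genes are not independent replicates, and these correlations are descriptions that share the same 6 libraries.

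Among the member genes themselves, short and long ones differed in which lists supplied them. The 39 genes under 50 kb held 278 regions, of which 32.4% were called in at least 3 libraries and 27.7% in KO 2 alone. The 90 genes over 200 kb held 755 regions, of which 13.8% were called in at least 3 libraries and 47.7% in KO 2 alone. The 67 genes between lay between on both counts, at 21.5% and 35.2%. Across the 196 genes, span went with a higher share of regions from KO 2 alone (Spearman correlation 0.324) and a lower share called in at least 3 libraries (correlation -0.387). Regions of short genes also lay close together, with 47.7% of neighbouring regions within 1 kb of each other, against 11.6% in the genes over 200 kb. KO 2 had both the most tags and the most peaks, and the part of depth in these differences was not tested.

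**Figure D2:**
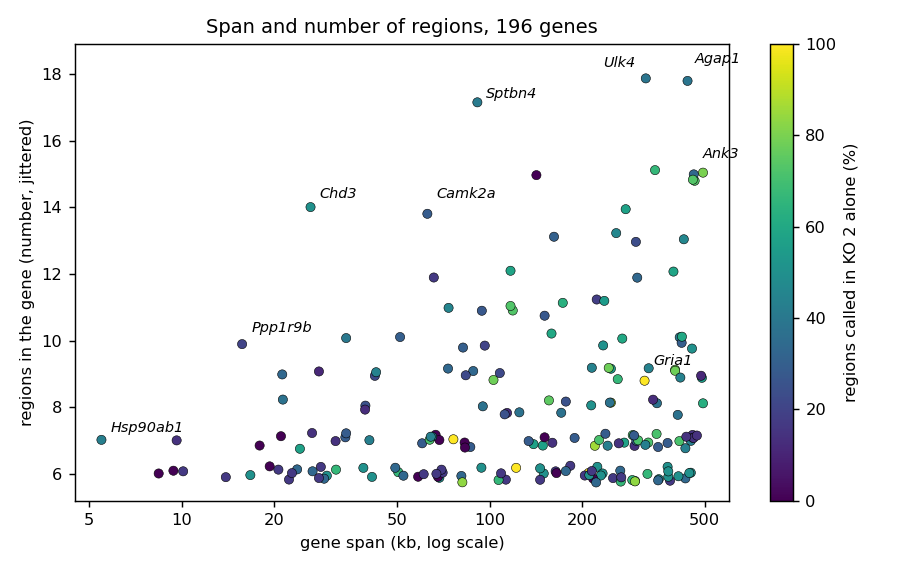
Gene span in kb (log scale) against the number of regions (jittered vertically), 1 point per member gene, coloured by the percent of its regions called in KO 2 alone. Points with a high percent lie mostly at long spans, as in Gria1 (100%, 319 kb), while Ppp1r9b and Hsp90ab1 hold many regions in short spans.

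In 71 genes KO 2 alone supplied at least 50% of the regions, and their median span was 236 kb, against 112 kb in the other 125. Gria1, which encodes the AMPA receptor subunit GluA1, had 9 regions in KO 2 and none in the other 5 libraries. Golga4, a golgin of the trans-Golgi, Atg4a, a protease of autophagy, and Tmem267, a transmembrane protein, had 7, 6 and 6 regions, all of them in KO 2. Most of those in Golga4 and Atg4a were clustered: 5 of 6 and 4 of 5 gaps between neighbouring regions were within 1 kb, against 1 of 8 in Gria1. Ncam1, the neural cell adhesion molecule, had no region in any control, none in KO 1, 5 in KO 2 and 1 in KO 3. In all, 25 member genes had no region that 2 libraries shared, and 51 had none that 3 libraries shared.

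The member genes most often called again included genes of spines and calcium transport. Counting only regions called in at least 3 libraries, Ppp1r9b had 7 and Atp2b2 had 6. Ppp1r9b spans chr11:94991212-95006898, on which its 10 regions covered 4.42 kb. It had 4, 7 and 8 called regions in controls 1, 2 and 3 and 7, 9 and 5 in KO 1, 2 and 3, and the groups overlapped. Called in every list were 3 of them: the start region at chr11:94991035-94991690, the next at chr11:94991901-94993070 and one at chr11:94997846-94998274. At the start region the authors' fold enrichment was 5.74, 7.06 and 9.85 in controls 1, 2 and 3 and 6.68, 9.05 and 8.9 in KO 1, 2 and 3. Such fold values, here and below, are the authors' own ratio of pull-down tags to the local background, and they describe a peak within its list and were not tested between lists. The region at the other end of the gene, chr11:95006481-95006879, was called in every library except KO 3.

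Atp2b2 encodes a plasma membrane calcium pump and spans 299 kb of chromosome 6. Controls 1, 2 and 3 had 2, 7 and 7 of its 13 regions, and KO 1, 2 and 3 had 8, 10 and 7. Its strongest region, chr6:113876912-113877504, had fold values of 13.9, 23.2 and 20.3 in the controls and 25.8, 22.9 and 10.8 in the KOs. Map1a, a microtubule-associated protein of dendrites, and Agap2, an Arf GTPase-activating protein, had 5 regions each in at least 3 libraries, as did Snrnp70, a protein of the U1 spliceosome particle.

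**Figure D3:**
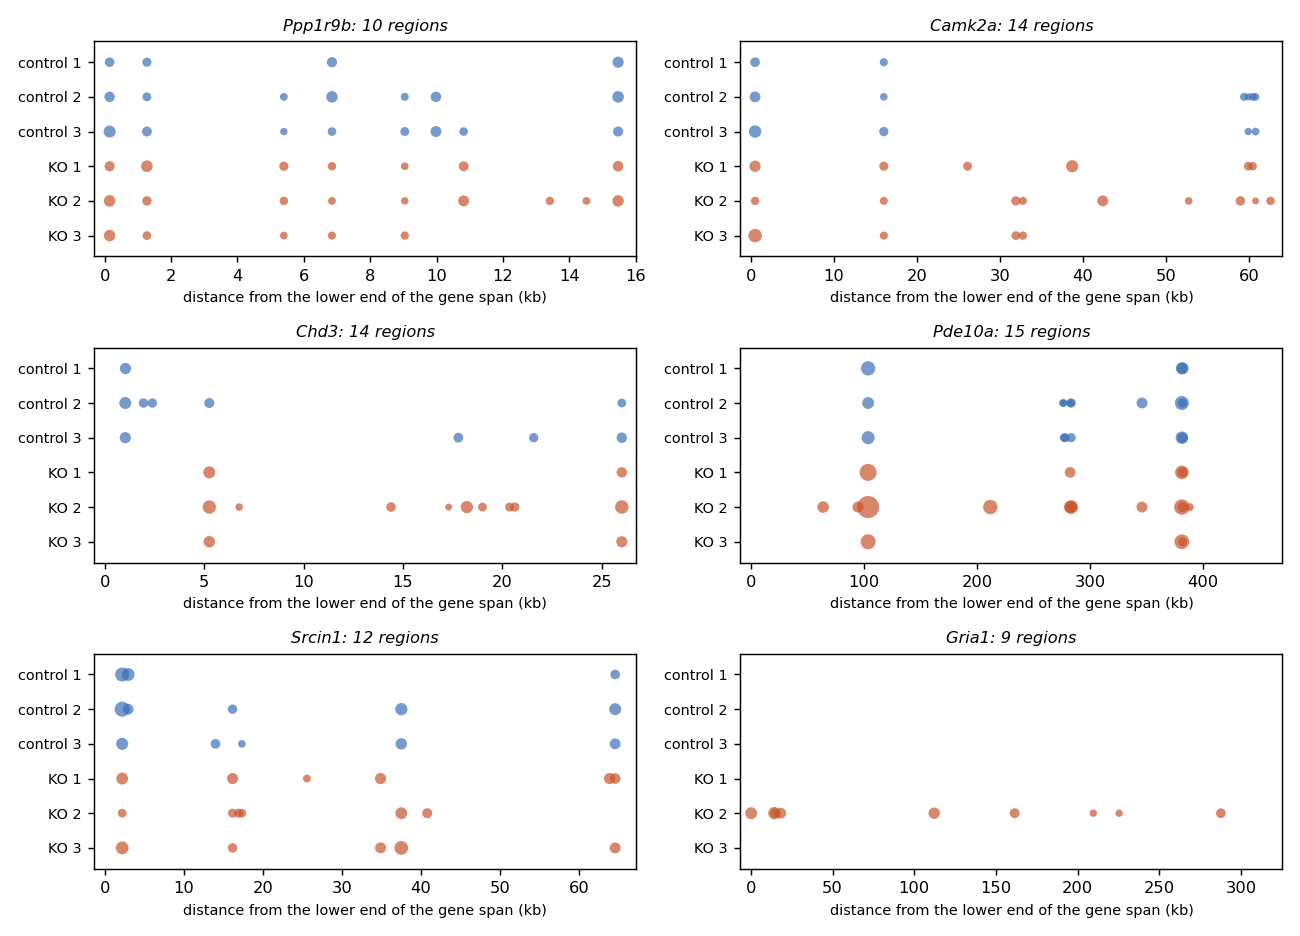
Position of each called region of 6 genes, as the distance in kb from the lower coordinate of the gene span, by library (blue, control; orange, KO); the dot area grows with the authors' fold enrichment. Ppp1r9b repeats the same positions across libraries, Srcin1 was called in at most 6 places per library, and all 9 Gria1 regions lie in the KO 2 row.

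The genes with the most regions were 2 very long genes and the spectrin gene Sptbn4. Agap1, which encodes an Arf GTPase-activating protein of endosomal traffic, had 18 regions over 440 kb. They were called 2, 3 and 4 times in controls 1, 2 and 3 and 6, 10 and 7 times in KO 1, 2 and 3, so each KO was above each control. Ulk4, a pseudokinase, also had 18 regions, with 3, 5 and 4 in the controls and 6, 10 and 5 in the KOs. Sptbn4, the spectrin of the axon initial segment, had 17 in 91.3 kb, with 2, 5 and 7 in the controls and 4, 12 and 2 in the KOs. Of these 3 genes only Agap1 had separated groups. Its partner at the initial segment, Ank3 or ankyrin-G, showed 2, 2 and 1 regions in the controls and 1, 13 and 0 in the KOs, so 12 of its 15 came from KO 2 alone.

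The same reliance on KO 2 was seen in several signalling genes with 15 regions. Dgki, a diacylglycerol kinase, had 0, 3 and 0 in the controls and 1, 13 and 0 in the KOs. Prkcb, protein kinase C beta, had 3, 2 and 1 in the controls and 0, 11 and 0 in the KOs. Phactr1, a regulator of protein phosphatase 1 and actin, had 0, 3 and 1 in the controls, 3 in KO 1, 15 in KO 2 and 3 in KO 3. KO 2 thus called every region of Phactr1, and 11 of the 15 were its own.

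KO 2 also had the highest count in Camk2a, Celf4, Chd3 and Grin2a, which had 13 or 14 regions each. Camk2a, the kinase subunit abundant at the postsynaptic density, had 2, 6 and 4 of 14 regions in the controls and 6, 9 and 4 in the KOs, and 2 of them were called in all 6 libraries. Celf4, an RNA-binding protein of neurons, had 1, 4 and 3 in the controls and 4, 13 and 3 in the KOs. Chd3, a chromatin remodeller of the NuRD complex, packed 14 regions into 26.2 kb, with 1, 5 and 4 in the controls and 2, 9 and 2 in the KOs. Grin2a, the GluN2A subunit of the NMDA receptor, had 2, 0 and 1 in the controls and 5, 7 and 1 in the KOs.

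**Figure D4:**
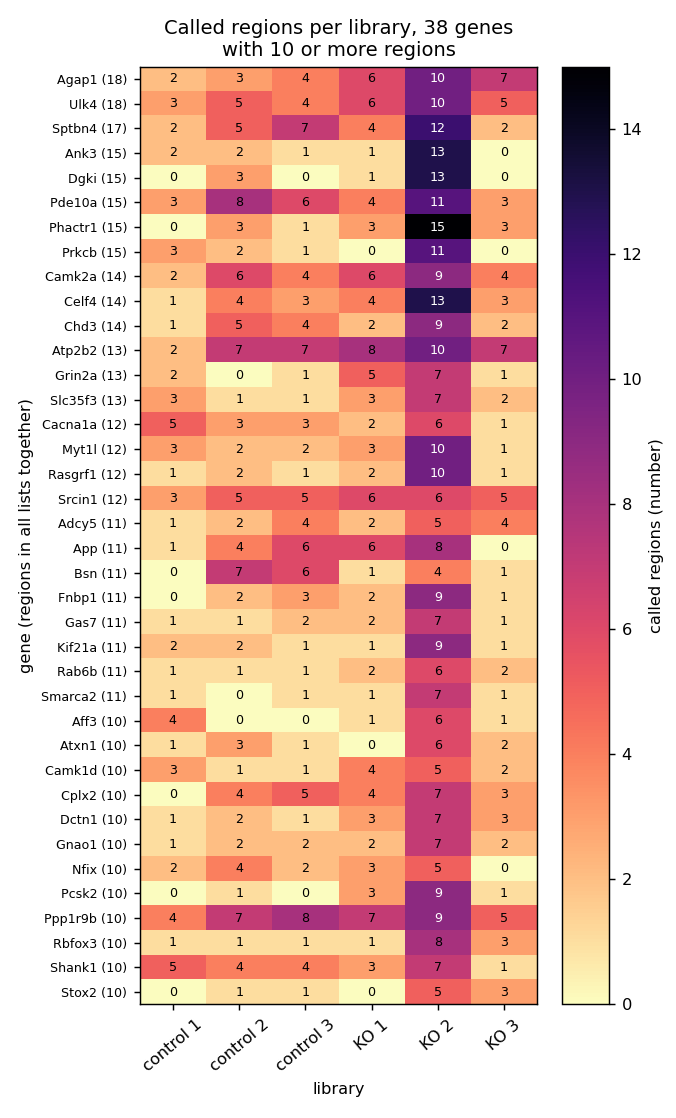
Number of called regions in each library (colour and printed value) for 38 of the 40 member genes with 10 or more regions, the total over all lists in brackets. The KO 2 column holds the highest value in most rows; Bsn and Srcin1 are among the rows where it does not stand alone.

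Per length, the densest member was Hsp90ab1, the constitutive cytosolic HSP90 chaperone, with 7 regions in 5.48 kb, or 1 per 0.783 kb. Its counts were 0, 2 and 2 in the controls and 3, 6 and 1 in the KOs, and the region called most often, chr17:45571552-45571927, was found in 5 libraries. Hnrnpa2b1, an RNA-binding protein that carries mRNA along dendrites, followed at 1 region per 1.37 kb, with 3, 2 and 4 in the controls and 3, 6 and 2 in the KOs. Kifc2, a minus-end kinesin, had 1 per 1.4 kb, with 1 in each control and 3, 2 and 2 in the KOs. Jph4, a junctophilin, and Atn1, the transcriptional corepressor atrophin-1, had 1 region per 1.68 and 2.32 kb. Ppp1r1b held 6 regions in 9.39 kb: 1, 2 and 6 in controls 1, 2 and 3 and 2 in each KO. Its region at chr11:98348748-98349293 was called in all 6 libraries, and 4 of its regions were called in control 3 alone.

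Of the gene lists examined, that of the cytoskeleton held the largest share of member genes. Over all protein-coding genes with a region, 196 of 5568 (3.52%) had 6 or more. Of 46 spectrin, ankyrin, microtubule and actin genes with a region, 14 did, with 122 member regions of which 62 came from KO 2 alone and 26 from at least 3 libraries. Dst, the cytolinker dystonin, had 0, 1 and 0 in the controls and 0, 7 and 1 in the KOs. Map1a, by contrast, had 0, 5 and 4 in the controls and 5, 7 and 3 in the KOs. Of 24 listed kinesin, dynein and dynactin genes with a region 6 were members, and the kinesins Kif1c and Kifc2, with 7 and 6 regions, were members outside that list. Kif21a, a kinesin of axons and growth cones, had 2, 2 and 1 in the controls and 1, 9 and 1 in the KOs, and Kif5a, a kinesin heavy chain of axonal transport, had 0, 1 and 3 in the controls and 2, 5 and 1 in the KOs. The lists were chosen with results of these data known and long genes fill several of them, so these shares are counts with no test.

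At the synapse, 11 of 40 postsynaptic genes and 8 of 35 presynaptic genes with a region were members. Shank1, a master scaffold of the postsynaptic density, had 5, 4 and 4 of 10 regions in the controls and 3, 7 and 1 in the KOs. Its longest region, chr7:44351558-44353633, was the longest of all members at 2076 bp, where the median was 215 bp, and it was called in all 6 libraries. Bsn encodes bassoon, a scaffold of the presynaptic active zone, and had 0, 7 and 6 of 11 regions in the controls and 1, 4 and 1 in the KOs. Cplx2, the SNARE-binding complexin, had 0, 4 and 5 in the controls and 4, 7 and 3 in the KOs. Cadps, a priming factor of dense-core vesicles, had 2, 3 and 3 in the controls and 1, 5 and 1 in the KOs. Nrxn2, a presynaptic adhesion receptor, was even, with 2, 3 and 3 in the controls and 2, 3 and 4 in the KOs. In each of these genes the groups overlapped.

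Ion channel genes were members in 6 of 53 cases. Cacna1a, the pore of the P/Q-type calcium channel, had 5, 3 and 3 of 12 regions in the controls and 2, 6 and 1 in the KOs. Cacnb4, an auxiliary calcium channel subunit, had 1 in each control and 2, 6 and 2 in the KOs, and Cacna1e, the R-type pore, had 0, 0 and 1 in the controls and 1, 6 and 1 in the KOs. Kcnq3, a subunit of the M-type potassium channel, had 3, 2 and 2 in the controls and 1, 3 and 4 in the KOs. Adhesion and guidance receptors gave 8 of 28. Lrp1, a large endocytic receptor, was low in KO 2, at 0, 2 and 2 in the controls and 7, 1 and 5 in the KOs. Adgrb1, an adhesion G protein-coupled receptor, had 1, 4 and 3 in the controls and 2, 3 and 2 in the KOs. Ntrk3, the receptor of neurotrophin-3, had 1, 1 and 0 in the controls and 0, 7 and 0 in the KOs, and Nfasc, or neurofascin, had 2, 1 and 2 against 3, 2 and 3.

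Regulators of the nucleus and of RNA were also among the members. Of 56 listed chromatin and transcription genes with a region 8 were members, and of 38 genes on the RNA-binding list 6 were, 1 of them the Arf GTPase-activating protein Agap2. The list did not hold every such gene, and Snrnp70 was not on it. Smarca2, an ATPase of the SWI/SNF complex, had 1, 0 and 1 in the controls and 1, 7 and 1 in the KOs. Rbfox3, the splicing factor known as NeuN, had 1 region in each control and 1, 8 and 3 in the KOs. Mbnl2, a splicing factor, had 1 in each library except KO 2, where it had 7, and Eif4g3, a translation initiation scaffold, had 2, 3 and 0 in the controls and 0, 5 and 0 in the KOs. Of 53 small GTPase regulators and kinases 10 were members, among them Camk1d, a calmodulin-dependent kinase, with 3, 1 and 1 in the controls and 4, 5 and 2 in the KOs.

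Of the 16 medium spiny neuron markers with a region, 4 were members, and no marker of astrocytes, microglia, endothelium or cortical excitatory neurons was. Those lists had only 7, 6, 4 and 4 genes with a region. The share of members over all genes with a region was 3.52%, so these counts allow no contrast of cell types. Pde10a, the phosphodiesterase typical of medium spiny neurons, had 3, 8 and 6 of 15 regions in controls 1, 2 and 3 and 4, 11 and 3 in KO 1, 2 and 3. Adcy5, the main adenylyl cyclase of the striatum, had 1, 2 and 4 in the controls and 2, 5 and 4 in the KOs. Arpp21, a cAMP-regulated phosphoprotein that binds RNA, had 0, 2 and 2 in the controls and 5, 5 and 3 in the KOs, so each KO was above each control. Mobp, a myelin protein, was the single member among the 9 oligodendrocyte markers with a region, with 0, 1 and 2 in the controls and 2, 6 and 1 in the KOs. None of the 5 loci that can collect ribosomal RNA reads and that had a region was a member.

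The 49 regions called in all 6 libraries lay in 41 genes. By the rule of the highest lowest fold, the first was in Cdh4, a cadherin of neuronal adhesion, at chr2:179738418-179739178. Its fold values were 18.2, 41.7 and 33.4 in controls 1, 2 and 3 and 81.2, 37.1 and 70.4 in KO 1, 2 and 3. In Myt1l, a neuronal zinc finger factor, the region at chr12:29609870-29610311 had 24.9, 41.8 and 18.5 in the controls and 13.3, 18.8 and 12.1 in the KOs. Adam22 held 2 such regions, at chr5:8367063-8367520 and at its start. The first had 18.8, 17.5 and 17.5 in the controls and 11.0, 15.9 and 13.8 in the KOs. Zswim6, a zinc finger gene, had 11.0, 45.8 and 38.1 in the controls and 35.3, 10.7 and 30.8 in the KOs at chr13:107858034-107858571. Fold values of 1 region thus varied widely between libraries of the same genotype.

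Pde10a had 3 regions in all 6 libraries. The one at chr17:8628739-8629099 had fold values of 14.4, 9.55 and 11.9 in the controls and 21.0, 36.1 and 16.1 in the KOs, and a pair lay close together near chr17:8906202-8906649. At the last, values were 9.73, 13.7 and 10.6 in the controls and 12.9, 17.0 and 15.4 in the KOs. Regions in Cadps, Sik3, a salt-inducible kinase, Shank3, a scaffold linked to autism, and Shank1 completed the first 12, with lowest folds of 9.39, 9.11, 8.36 and 7.08. In the authors' lists the median fold of member peaks was 5.16 in control 1 and 6.72 to 7.13 in the other 5, and that of all other peaks was 4.6 and 7.2 to 7.54. Except in control 1, member peaks thus had the lower median fold of the pair. The median −log10 q went the other way. It was 4.89 for member peaks in control 1 and 10.4 to 11.9 in the other 5 lists. For all other peaks it was 3.44 and 9.9 to 11.7, and only in control 3 were the medians of the pair equal.

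**Figure D5:**
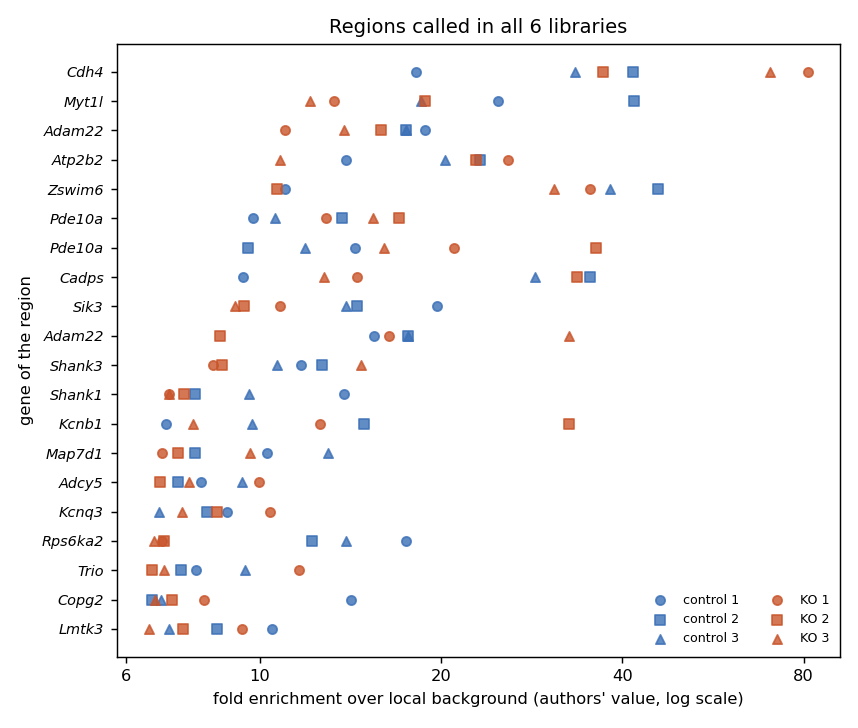
Authors' fold enrichment over the local background (log scale) in each library for the 20 member regions with the highest lowest fold among the 49 called in all 6 libraries, 1 row per region, labelled by gene. In most rows the control (blue) and KO (orange) symbols mix, and in Zswim6 the KO values alone run from 10.7 to 35.3.

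Regions called in 1 genotype alone were few, and their share was that of the whole series. Of the 1561 members, 22 (1.41%) were called in all 3 KOs and in no control, against 1.41% of all regions. The reverse held for 15 (0.961%), against 0.796% of all regions. Of the KO-only regions, one in Pcsk2, a convertase of prohormones, at chr2:143765081-143765310 had folds of 17.2, 11.9 and 11.3 in KO 1, 2 and 3. It also lay in Pcsk2os2, so the transcript is uncertain. A region in Sorcs2, a sortilin-type receptor, at chr5:36393279-36393637 had 12.2, 11.2 and 15.9, and one in Snx29, a sorting nexin, at chr16:11685067-11685297 had 14.0, 10.5 and 10.5. Camk1d, Bsn, Rps6ka2, Fbxl17, Clstn3, Phactr1 and Rrbp1 gave the next 7, with lowest folds from 10.4 down to 7.14.

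Control-only regions were led by Map7d1, a microtubule-binding protein, at chr4:126242144-126242481, with 9.85, 8.84 and 9.62 in controls 1, 2 and 3. Chd3 followed at chr11:69344084-69344538 with 8.48, 9.78 and 8.45, and Slc4a4, a sodium bicarbonate cotransporter, at chr5:88886842-88887141 with 7.38, 14.5 and 15.3. Trak1, a motor adaptor for mitochondria, Nrxn2, Nos1ap, Kmt2d, Rtl1, Adgrb1 and Dctn1 came next, with lowest folds from 6.29 down to 5.47. The Rtl1 region also lay in the non-coding gene Meg3. Dctn1, a dynactin subunit, held 2 KO-only regions and 1 control-only region within 34.2 kb. These counts rest on single libraries: among the same 1561 members, without control 1 the control-only count was 59, and without control 3 it was 23. The KO-only count was 36, 49 and 68 without KO 1, 2 or 3, and 36 without control 2. Without both control 1 and KO 2, 41 of the 305 members then chosen were control-only and 17 were KO-only. With a list left out fewer lists have to agree, and no share over all regions is given for these settings. No direction is thus read from them.

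Counted by gene, 16 of the 196 member genes (8.16%) had more called regions in every KO than in every control, and none had the reverse. Over all 5568 protein-coding genes with a region the shares were 2.32% and 0.97%. The shares are not on an equal footing: genes with few regions have little room to separate, KO 2 held 61.9% of the members, and all KO libraries had more tags than any control. The part of depth in the count was not tested. With control 1 and KO 2 left out and members chosen again, 5 of 41 genes were higher in both KOs and 13 were higher in both controls. Among the same 196 genes, the count of 16 became 38 without KO 3, 25 without control 1 and 25 without control 2. The count of 0 became 13 with the KO 2 list left out and 10 without control 1. Groups of fewer libraries separate more easily, and no share over all protein-coding genes is given for these settings. No direction is thus read from these counts.

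Among the 16, Agap1 came first. Slc24a2, a sodium, calcium and potassium exchanger, had no region in any control and 1, 7 and 1 in the KOs. Rrbp1, a ribosome-binding protein of the endoplasmic reticulum, had 0, 0 and 1 in the controls and 2, 7 and 2 in the KOs. Peg3, a paternally expressed zinc finger gene, had 0, 0 and 1 in the controls and 4, 4 and 2 in the KOs. Myh10, non-muscle myosin IIB, had 1, 2 and 2 against 5, 6 and 3, and Dctn1 had 1, 2 and 1 against 3, 7 and 3. In these genes the KO 2 count was the highest or tied for it.

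Along the gene, summits of regions found again lay more often near the start. A region called in several libraries enters once for each of its summits, so these shares are of summits and not of regions. RefSeq gave the strand of 142 of the 196 genes, which held 2075 summits of single lists. The first 10% of the span held 20.3% of them and the last 10% held 14.2%. For summits of regions called in at least 3 libraries the shares were 27.7% and 10.4%, and for regions called in 1 library they were 12.6% and 17.6%. The share in the first 10% was 18.5%, 25.8% and 27.0% in controls 1, 2 and 3 and 21.2%, 13.3% and 26.6% in KO 1, 2 and 3, lowest in KO 2. Both ends together, over all genes with no strand needed, held 29.4%, 45.0% and 43.5% in the controls and 36.8%, 29.9% and 40.7% in the KOs. The groups overlapped, with means of 39.3% ± 8.63 and 35.8% ± 5.46 (SD, n = 3 each, exact permutation p = 0.6, two-sided). Exons, introns and untranslated regions were not analysed here.

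The members covered 429 kb in all. Neighbouring regions of a gene lay a median of 8.27 kb apart, and 327 of 1377 gaps (23.7%) were within 1 kb. In all, 104 members (6.66%) also lay in another gene, which was a long non-coding RNA in 87 cases and a further protein-coding gene in 14. The strand of the reads is not given by the peak lists, and the transcript of these regions is uncertain. The miRNA hairpins Mir6927 in Mllt6 and Mir7036b in Add1 lay under members called in 2 libraries and 1 library. Ccl21b, with 9 regions, belongs to a chemokine family of near-identical copies, and the placement of its peaks is uncertain.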

How the data were processed

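The authors called peaks in each pull-down library separately, with the matching input as control, a q-value limit of 0.01 and an extension setting of 150 bp, per the file headers. Tools credited to the submitters' processing notes are MACS2 2.2.6, HISAT2 2.1.0 and cutadapt 2.8, on the build GRCm38. The deposited columns used here are the pileup (a signal, tag coverage at the summit), fold enrichment (a ratio), and −log10 values of the p-value and q-value, all computed by the authors' caller. No counts outside peaks were used here, so no interval from counting error is given.

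Peaks were merged, assigned to RefSeq GRCm38.p6 gene spans and counted with Python 3.11.15, pandas 2.3.3, numpy 2.4.6 and scipy 1.17.1; the script was tested on simulated lists. Values per library were compared by exact two-sided permutation over the 20 assignments of 6 libraries, with Benjamini-Hochberg adjustment over 5 results. The members, gene lists and tests were chosen with earlier results of these data known. Genes were named by rule: the 15 with the most regions, the 8 densest, up to 4 per list, up to 8 separated each way, the 12 regions of all 6 libraries with the highest lowest fold, and up to 10 regions of each genotype alone. Some genes that the rule names are not reported here. Other genes named were chosen after their values were seen. Alternatives covered thresholds, list length, merging distance, gene assignment, the number of regions required and the libraries used.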

Additional observations from a re-analysis of the deposited data

How the results depend on the processing

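Of 186 alternative values, 123 kept their direction or stayed within 1.5 times the count reported. The choice of members depended on KO 2 and on regions of 1 library. The 1561 regions in 196 genes became 708 in 95 with lists of equal length, 305 in 41 without control 1 and KO 2, 809 in 77 with 8 or more regions required, 86 in 11 when only regions of at least 2 libraries counted, and 456 in 63 when members were chosen from the other 5 lists over the merged regions and then counted in all 6 lists (below, members chosen without KO 2). Leaving out 1 library and choosing members again gave 470 to 1468 regions in 65 to 186 genes. All other values with 1 library left out, below, keep the 1561 members chosen from all 6 lists.

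With 3 libraries against 3, or fewer, no comparison of genotypes could reach 0.05, so only directions are compared. The KO minus control difference in member regions per library was -38.0 without control 1 and KO 2, -4.33 with members chosen without KO 2 and -160 per 1000000 tags used, and 0.167 to 327 with 1 library left out. In percent of peaks it was -0.724 at a −log10 q of at least 5, -1.4 without control 1 and KO 2, -0.29 with regions of at least 2 libraries, -1.31 with members chosen without KO 2, and -0.755 to 1.16 with 1 library left out. In genes it was -3.0, 0.0 and -1.67 under the last 3 of these settings, and -3.0 to 21.5 with 1 library left out. In regions per gene it was -0.674 without control 1 and KO 2, and 0.0607 to 1.49 with 1 left out. The share at both ends of the span was lower in the KOs under every alternative run, by a difference of -8.5 to -0.588 with 1 library left out. Exact permutation p-values over all alternatives ran from 0.1 to 1.0.

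In the order −log10 q of at least 5, equal lists, without control 1 and KO 2, 8 or more regions, regions of at least 2 libraries and members chosen without KO 2, the counts that moved by more than 1.5 times were as follows. Regions in all libraries, 49 in the report, became 29 (equal lists), 22 (8 or more), 13 (at least 2 libraries) and 28 (members chosen without KO 2), and 49 to 101 with 1 library left out. KO-only regions, 22, became 14, 14, 11, 1 and 9, the setting without control 1 and KO 2 staying within that margin, and 22 to 68 with 1 left out. Control-only regions, 15, became 8, 41, 9, 0 and 9, equal lists staying within it, and 16 to 59 with 1 left out. Genes higher in every KO, 16, became 8, 5, 9, 0 and 3 from equal lists onward, and 20 to 38 with 1 left out. Genes higher in every control, 0, became 3 (equal lists), 13 (without control 1 and KO 2) and 2 (members chosen without KO 2), and 0 to 13 with 1 left out. The cause was not tested beyond the fewer libraries or peaks these settings hold, and shares over all regions or genes are not given for them.

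The deviations of same-numbered libraries had correlations of -0.074, -0.0412 and 0.0127, and those of differently numbered libraries ran from -0.0521 to 0.0731. With 3 libraries per group these values cannot show whether the numbers mark pairs. With the replicate number as a block, the differences were 202 regions, 0.468 percent of peaks, 11.3 genes, 0.941 regions per gene and -3.53 percent at the ends, with exact sign-flip p-values of 0.5, 1.0, 0.75, 0.5 and 0.75, where 0.25 is the smallest that 3 pairs allow.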
